A study of Homo sapiens with 6 samples.

Results

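Zinc is held in human cells by metallothioneins, sensed by the transcription factor MTF1 and moved across membranes by the SLC30 and SLC39 transporters, and 10 genes of this system were followed in HT29 cells deprived of histidine or of tryptophan. The genes were MT1E, MT1F, MT1G, MT1M, MT1X, MT2A, MTF1, SLC30A1, SLC39A4 and SLC39A10, chosen by symbol from the 60676 genes listed in the normalized count tables through their identifiers in gencode release 44. All 10 were listed, 9 had at least 1 read, and 8 had enough reads to be tested. HT29 is an established human colorectal adenocarcinoma line. The cells were left untreated in control medium or kept without histidine or without tryptophan for 48 h, and 6 libraries were made from polyadenylated RNA, 2 for each group. For histidine depletion the medium was prepared on an RPMI base and for tryptophan depletion on a DMEM F-12 base, both with dialyzed heat-inactivated serum, while the line was routinely grown in DMEM with serum that was not described as dialyzed. For proteomics of depleted cells, the paper names full RPMI medium as the control. Which base the control cells of the sequencing experiment received was not given in the sources used here. The loss of the amino acid and the change of base medium or serum therefore cannot be told apart in these comparisons, and the metal content of the media was not measured in these files.

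Metallothioneins are small proteins rich in cysteine that bind zinc and copper and buffer their free concentration. When free zinc rises, MTF1 binds zinc through its zinc fingers, enters the nucleus and occupies metal response elements in the promoters of metallothionein genes and of SLC30A1, which encodes the zinc exporter of the plasma membrane. SLC39A4 encodes the importer with which the intestine takes up zinc from food, and SLC39A10 encodes another importer of the cell surface, whose gene is known to be restrained when zinc is plentiful.

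The 6 metallothionein genes lie in a cluster on chromosome 16 (GRCh38). In gencode release 44, MT2A (ENSG00000125148) spans chr16:56608584-56609497, MT1E (ENSG00000169715) chr16:56625475-56627112, MT1M (ENSG00000205364) chr16:56632659-56633981, MT1F (ENSG00000198417) chr16:56657731-56660698 and MT1X (ENSG00000187193) chr16:56682470-56684196, all on the plus strand. MT1G (ENSG00000125144) spans chr16:56666730-56668065 on the minus strand. MTF1 (ENSG00000188786) lies on the minus strand at chr1:37809574-37859592 and SLC30A1 (ENSG00000170385) on the minus strand at chr1:211571568-211579161. SLC39A10 (ENSG00000196950) lies on the plus strand at chr2:195575977-195737702 and the position of SLC39A4 is given with its values. The authors counted reads over the exons of an earlier gencode release, so that the exons counted may differ from those described here. The metallothionein genes are close relatives of each other. Of the 50-base windows in their transcripts, 7.10% in MT1E, 1.24% in MT1F, 16.4% in MT1G, 18.2% in MT1M, 18.7% in MT1X and 4.48% in MT2A also occur in transcripts of another gene. For windows of 100 bases the share was 0% except in MT1X, where 11.6% is shared with ENSG00000259827, a gene on the same strand that covers 18.6% of the exonic bases of MT1X. Sharing between metallothionein genes was thus limited to stretches shorter than 100 bases, and its part in their values was not tested. MT1X, MT1G and MT1F rest on few reads.

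Metal response elements share a core of 7 bases, and the core was searched on both strands as TGCACNC and TGCGCNC, with N standing for any base. RefSeq promoter windows (GRCh38.p14) of 300 bases, from 250 before to 50 after the start site, were held for 5 members, namely MT2A, MT1X, SLC30A1, SLC39A10 with 2 windows, and MTF1. No window was held for MT1E, MT1F, MT1G, MT1M and SLC39A4. Over all 35116 windows of the table, 29.6% held at least 1 core and 8.60% at least 2. The MT2A window held 8 cores, and 0.0199% of all windows held as many or more. The MT1X window held 4, and 0.601% of all windows held as many or more. SLC30A1 held 2 cores, SLC39A10 held 1 in a window and 0 in the other, and MTF1 held 0. No counted core overlapped another. The 250 bases before the start site are printed for the 3 members with cores there, because MT2A and SLC30A1 moved in opposite directions in the same cells. Capitals mark the cores in the sequences, which run in the direction of the gene from chr16:56608334-56608583 for MT2A (plus strand), chr16:56682220-56682469 for MT1X (plus strand) and chr1:211579162-211579411 for SLC30A1 (minus strand).
MT2A: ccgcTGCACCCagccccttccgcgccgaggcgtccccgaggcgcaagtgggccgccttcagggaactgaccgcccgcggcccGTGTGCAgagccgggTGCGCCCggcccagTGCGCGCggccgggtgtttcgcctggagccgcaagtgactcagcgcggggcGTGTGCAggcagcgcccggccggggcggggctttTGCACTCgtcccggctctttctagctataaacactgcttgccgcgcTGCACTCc
MT1X: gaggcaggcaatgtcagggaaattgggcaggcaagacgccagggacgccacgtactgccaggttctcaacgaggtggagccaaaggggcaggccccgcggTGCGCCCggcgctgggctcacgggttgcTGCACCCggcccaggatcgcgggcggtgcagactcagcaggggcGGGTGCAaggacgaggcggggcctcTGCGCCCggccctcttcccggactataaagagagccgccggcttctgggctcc
SLC30A1: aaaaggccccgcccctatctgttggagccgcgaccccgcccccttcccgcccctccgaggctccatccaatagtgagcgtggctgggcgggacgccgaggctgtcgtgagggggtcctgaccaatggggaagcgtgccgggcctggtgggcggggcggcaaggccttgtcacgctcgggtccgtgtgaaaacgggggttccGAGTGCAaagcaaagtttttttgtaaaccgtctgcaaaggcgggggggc
MT2A carried 7 of its cores in this stretch, MT1X all 4 and SLC30A1 1 of 2. A match is a run of letters and says nothing of binding.

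**Figure D1:**
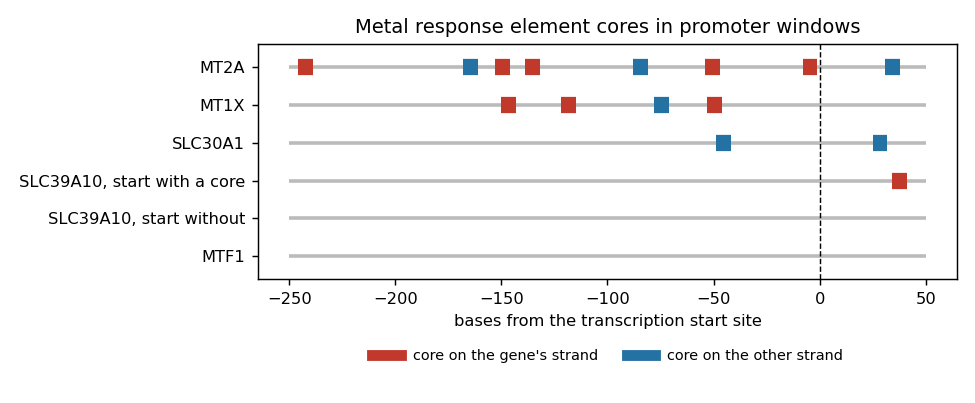
Positions of metal response element cores (x axis, bases from the transcription start site, marked by the dashed line at 0) in the 300-base RefSeq promoter windows held for 5 members (y axis). Red blocks lie on the gene's strand and blue blocks on the other strand. MT2A holds 8 cores and MT1X 4, while MTF1 holds 0.

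The 6 libraries held between 46390819 and 64388876 reads assigned to genes. Of 8 markers of colon epithelium, 4 rose and 4 fell after histidine depletion, and 4 rose and 2 fell after tryptophan depletion. Of all tested genes, 39.1% were called higher and 38.2% lower without histidine, and 36.1% and 34.8% without tryptophan. Most of the summed normalized count of the 8 markers of colon epithelium was KRT8 and KRT18. This sum was 374620 to 398685 in untreated cells, 508137 to 534387 without histidine and 539332 to 541458 without tryptophan. KRT20 rose 3.33-fold and 5.22-fold in that order, CDX2 fell 2.59-fold without histidine, and CDX1, with 21.9 and 18.9 normalized counts in untreated cells, had 0 reads without histidine and 5.34 and 2.75 normalized counts without tryptophan. CDX1 entered both tests only through the untreated libraries, where it was high. Of 5 leukocyte markers, the summed level was 64881 to 69522 in untreated cells, 12474 to 14507 without histidine and 38415 to 38427 without tryptophan, nearly all of it LYZ (lysozyme), while PTPRC, which marks leukocytes in general, had 0 to 2.13 normalized counts. CD14 rose 3.32-fold without tryptophan and fell 1.94-fold without histidine. The 3 mast cell markers had 0 reads in each library. The summed levels of 4 fibroblast and 3 endothelial markers were low, between 26.6 and 73.6, but members of them moved. VWF had 7.65 and 3.98 normalized counts in untreated cells and 42.5 and 40.7 without histidine. VWF entered the histidine comparison only through the libraries without histidine, where it was high. PECAM1, which entered that comparison only through the untreated libraries, had 48.1 and 36.8 in untreated cells. It had 8.13 and 9.16 without histidine and 20.3 and 18.3 without tryptophan. COL1A1 fell 2.14-fold without histidine. The part of these shifts in the results was not tested. Values given per library below are recovered reads scaled over all 6 libraries together, called normalized counts. Nothing in the labels says that the 2 samples of a group came from separate cultures, so the p-values rest on a spread between samples that may be technical. That spread was estimated largely from other genes of like expression, not from the libraries of a gene alone. The very small p-values below depend on this sharing between genes.

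The metallothionein genes were compared first, since their mRNA follows the zinc that is available to MTF1 in many cell types. MT1E, the metallothionein with most reads in untreated cells, fell after both depletions. MT2A, the most broadly expressed human metallothionein, rose modestly after histidine depletion and fell strongly after tryptophan depletion. MT1X and MT1F were low and fell after histidine depletion, and MT1F fell after tryptophan depletion as well. Both entered these tests only because they were high in untreated cells.

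MT1E had 1948 and 2112 normalized counts in the untreated libraries, 293 and 325 in the libraries without histidine and 407 and 410.2 in those without tryptophan. The 3 groups did not overlap, and the untreated libraries were the high ones. By limma on log2(normalized count + 1), with Benjamini-Hochberg adjustment over all genes tested, the log2 fold change of MT1E was -2.70 (SE 0.0753, adjusted p = 6.03e-20) after histidine depletion, which is 6.52-fold lower. After tryptophan depletion it was -2.32 (SE 0.0662, adjusted p = 1.94e-68), or 4.98-fold lower. A limma fit without the trend of variance on expression gave adjusted p-values of 0.000734 after histidine depletion and 0.000778 after tryptophan depletion. Groups of 2 libraries without overlap were also seen for genes that were not called. EPCAM after tryptophan depletion was such a gene (adjusted p = 0.310 by limma). The share of all genes without overlap was not counted, so here and below non-overlap only describes the values. Bulk RNA cannot tell fewer cells with the transcript from less transcript per cell.

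MT2A had 741 and 758 normalized counts in untreated cells, 1078 and 1111 in the libraries without histidine and 160.1 and 176 in those without tryptophan. Its groups did not overlap either, but their order differed from that of MT1E, with the histidine-depleted libraries highest and the tryptophan-depleted libraries lowest. The log2 fold change by limma was 0.55 (SE 0.0676, adjusted p = 6.86e-08) after histidine depletion, 1.47-fold higher, and -2.16 (SE 0.0951, adjusted p = 4.88e-47) after tryptophan depletion, 4.47-fold lower.

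MT1X had 36.1 and 28.8 normalized counts in untreated cells, 7.23 and 7.12 in the libraries without histidine and 21.3 and 20.1 in those without tryptophan. The 3 groups did not overlap. The fall after histidine depletion had a log2 fold change of -2.02 (SE 0.364, adjusted p = 2.35e-05 by limma), and -1.40 with a pseudocount of 8. MT1X reached the mean of 10 needed for this test only through the untreated libraries, so that it entered the test because it was high there. After tryptophan depletion the log2 fold change was -0.62 (SE 0.310, 95% interval -1.23 to -0.0079), with an unadjusted p of 0.0472 and an adjusted p of 0.0652 by limma, which misses the threshold of 0.05. A limma fit without the trend of variance on expression gave an adjusted p of 0.0234 for the same difference.

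MT1F had 21.9 and 29.8 normalized counts in untreated cells, 7.23 and 7.12 in the libraries without histidine and 4.27 and 10.1 in those without tryptophan. The untreated libraries lay above all others, and the depleted groups overlapped each other. Its log2 fold change by limma was -1.69 (SE 0.385, adjusted p = 0.000354) after histidine depletion and -1.80 (SE 0.420, adjusted p = 6.68e-05) after tryptophan depletion, the latter -1.17 with a pseudocount of 8. MT1F also entered both tests only through the untreated libraries, where it was high. MT1G had 2 and 8 reads in untreated cells, 1 and 0 in the libraries without histidine and 1 and 2 in those without tryptophan, and did not reach the mean of 10 normalized counts that was needed for a test. MT1M had 0 reads in each of the 6 libraries, which allows up to 3 reads per library and covers counting error only.

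Over the 6 metallothionein genes together, the summed normalized count was 2843 ± 132 (SD, n = 2) in untreated cells, 1418 ± 45.2 after histidine depletion and 606 ± 17.5 after tryptophan depletion. The sum was thus 2.00-fold lower without histidine and 4.69-fold lower without tryptophan. No test was made on this sum. The make-up of the sum also differed between the depletions. In untreated cells MT1E gave 70.9% (95% Wilson interval 69.0 to 72.6) and 71.9% (70.3 to 73.5) of the metallothionein reads of the libraries, and MT2A gave 27.0% and 25.8%. After histidine depletion the order turned, with MT2A at 77.8% (75.6 to 79.8) and 76.6% (74.4 to 78.8) and MT1E at 21.1% and 22.4%. After tryptophan depletion MT1E again gave the larger share, with 68.5% (64.5 to 72.2) and 66.4% (62.7 to 69.8), and MT2A gave 27.0% and 28.4%. These intervals cover counting error only. The ratio of MT1E reads to MT2A reads was 2.63 and 2.79 in untreated cells and 2.54 and 2.33 after tryptophan depletion, whereas after histidine depletion MT2A exceeded MT1E by a factor of 3.68 and 3.42.

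The zinc sensor MTF1 was examined next. MTF1 had 2268 and 2289 normalized counts in untreated cells, 6684 and 6675 in the libraries without histidine and 2542 and 2647 in those without tryptophan. The groups did not overlap, and the histidine-depleted libraries stood far above the others. The log2 fold change by limma was 1.56 (SE 0.0502, adjusted p = 8.80e-19) after histidine depletion, 2.95-fold higher. After tryptophan depletion it was 0.18 (SE 0.0514, adjusted p = 0.00112), only 1.13-fold higher, and this call was lost without the second tryptophan-depleted library (log2 fold change 0.14, adjusted p = 0.109) and in a limma fit without the trend (adjusted p = 0.0572). MTF1 mRNA was thus highest in the cells in which MT1E, MT1X and MT1F had fallen and MT2A had risen.

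SLC30A1, the zinc exporter and a classical target of MTF1, had 1944 and 1927 normalized counts in untreated cells, 1528 and 1509.9 in the libraries without histidine and 7641 and 7769 in those without tryptophan. The tryptophan-depleted libraries were far above the rest, and no groups overlapped. SLC30A1 rose after tryptophan depletion by 1.98 on the log2 scale (SE 0.0481, adjusted p = 3.15e-77 by limma), 3.96-fold, in the cells in which MT1E and MT2A fell. After histidine depletion it fell slightly, with a log2 fold change of -0.34 (SE 0.0569, adjusted p = 8.28e-06 by limma), 1.27-fold lower. Without the trend, the adjusted p-values by limma were 0.000756 after tryptophan depletion and 0.00875 after histidine depletion.

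SLC39A10, the importer known to be restrained by plentiful zinc, had 1964 and 1956 normalized counts in untreated cells, 4012 and 3716 in the libraries without histidine and 1549 and 1497 in those without tryptophan. Its groups did not overlap and were ordered in the reverse way to those of SLC30A1. The log2 fold change by limma was 0.99 (SE 0.0550, adjusted p = 3.45e-14) after histidine depletion, 1.98-fold higher, and -0.37 (SE 0.0549, adjusted p = 1.04e-09) after tryptophan depletion, 1.29-fold lower. The ratio of SLC30A1 reads to SLC39A10 reads was close to even in untreated cells (0.990 and 0.985), was 0.381 and 0.406 after histidine depletion, and was 4.93 and 5.19 after tryptophan depletion. Exporter and importer mRNA thus stood in opposite proportion in the 2 depletions.

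SLC39A4 (ENSG00000147804), the importer of dietary zinc, lies on the minus strand at chr8:144409742-144416844. It had 893 and 969.8 normalized counts in untreated cells, 875 and 951 in the libraries without histidine and 1290.1 and 1212 in those without tryptophan. The untreated and histidine-depleted libraries overlapped, and the tryptophan-depleted libraries were above both. After histidine depletion the log2 fold change was -0.019 (SE 0.0712, 95% interval -0.17 to 0.13, adjusted p = 0.816 by limma), an interval that includes small changes in either direction. After tryptophan depletion SLC39A4 rose by 0.42 (SE 0.0629, adjusted p = 1.83e-09 by limma), 1.34-fold. Of the exonic bases of SLC39A4, 3.61% also belong to an antisense gene (ENSG00000272115), and whether strand was used in counting was not given in the sources used here.

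**Figure D2:**
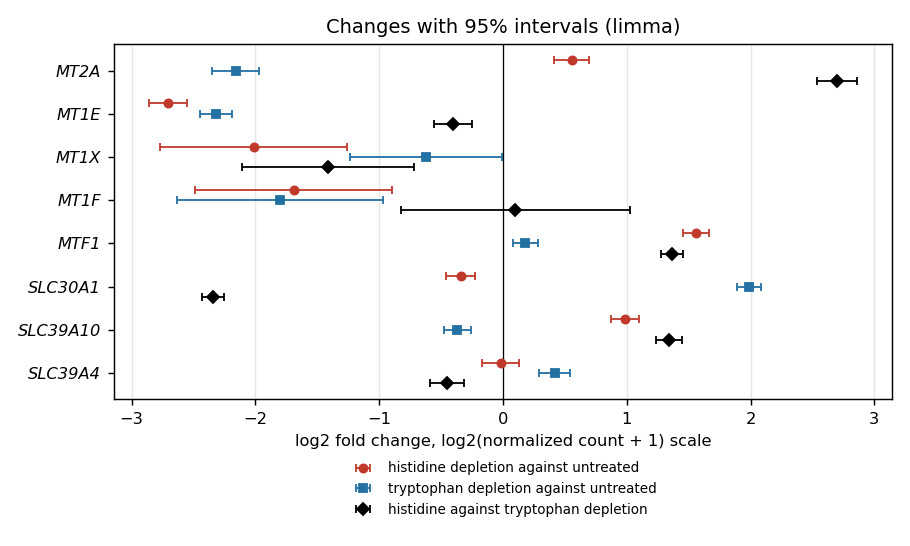
Log2 fold changes (x axis, log2(normalized count + 1) scale) with 95% intervals by limma for the 8 tested genes (y axis), after histidine depletion (red), after tryptophan depletion (blue) and between the depletions (black). MT2A, SLC30A1 and SLC39A10 have red and blue points on opposite sides of 0, at 0.55 and -2.16, -0.34 and 1.98, and 0.99 and -0.37.

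Counted together, 3 of the 8 tested members rose after histidine depletion (MT2A, MTF1 and SLC39A10) and 4 fell (MT1E, MT1X, MT1F and SLC30A1), where limma called 39.1% of all 18288 tested genes higher and 38.2% lower. MT1X and MT1F were tested only because they were high in untreated cells, and with a minimum mean of 50 the number that fell was 2 of 6. After tryptophan depletion 3 rose (SLC30A1, SLC39A4 and MTF1) and 4 fell (MT1E, MT2A, SLC39A10 and, tested for the same reason, MT1F), beside 36.1% higher and 34.8% lower of 17960 tested genes. With so many genes past the threshold in each comparison, the share of members called is not far from that background, and the sizes of the changes carry the description. The median log2 fold change of the tested members was -0.18 after histidine depletion and -0.50 after tryptophan depletion, against 0.010 and 0.013 over all tested genes. Without MT1X and MT1F the histidine median would lie between SLC39A4 (-0.019) and MT2A (0.55), so its sign rests on the filter. Without MT1F the tryptophan median would be the value of SLC39A10, -0.37. Both comparisons share the untreated libraries, which favours the same direction in both, and agreement beyond that was not tested. MT1E, MT1F and MTF1 moved in the same direction in both, while MT2A, SLC30A1 and SLC39A10 moved in opposite directions. Of the former, MT1F was tested only because it was high in the shared libraries. MTF1 rose only 1.13-fold after tryptophan depletion, a call that was lost in a limma fit without the trend.

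The depletions were then compared directly, with the untreated libraries entering the scaling, the filter on low counts and the estimate of the spread. MT2A, MTF1 and SLC39A10 were higher without histidine, and SLC30A1, MT1E, MT1X and SLC39A4 were higher without tryptophan. By limma fitted to all 6 libraries, 3 members were higher without histidine and 4 lower, beside 38.7% and 38% of 18264 tested genes, with a median log2 difference of -0.15 over the members and 0.011 over all tested genes. Without MT1X and MT1F the member median would lie between MT1E (-0.40) and SLC39A10 (1.34), so its sign rests on the filter. MT2A was 6.49-fold higher without histidine (log2 difference 2.70, SE 0.0761, adjusted p = 2.33e-15). MTF1 differed by 1.36 (SE 0.0419, adjusted p = 6.77e-15) and SLC39A10 by 1.34 (SE 0.0488, adjusted p = 6.32e-14) in the same direction. SLC30A1 was 5.07-fold lower without histidine than without tryptophan (log2 difference -2.34, SE 0.0423, adjusted p = 1.64e-17). Smaller differences of the same sign were found for MT1X with -1.41 (SE 0.328, adjusted p = 0.000873), SLC39A4 with -0.45 (SE 0.0645, adjusted p = 5.42e-06) and MT1E with -0.40 (SE 0.0737, adjusted p = 8.64e-05). MT1X passed the filter only through the libraries in which it was higher, those without tryptophan and the untreated ones. MT1F passed it only through the untreated libraries, and with the 4 depleted libraries alone 7 members were tested and MT1F was not among them. Its log2 difference was 0.098 (95% interval -0.83 to 1.02), so no difference was detectable at this depth.

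Levels of different genes were compared per length, as normalized counts per kilobase of the canonical transcript. In untreated cells MT1E was highest with 2721 ± 155 (SD, n = 2) per kilobase, followed by MT2A with 1869 ± 29.7. SLC39A4 (439), SLC39A10 (375), SLC30A1 (328) and MTF1 (287) formed a middle group, and MT1X (80.3), MT1F (60.8) and MT1G (12.4) were low. The libraries of MT1X and MT1F did not overlap in these levels, with 71.4 as the lower MT1X library and 70.2 as the higher MT1F library, so that these neighbours are hardly apart. After histidine depletion MT2A led with 2729 ± 58.6 per kilobase, before MTF1 with 842 ± 0.834 and SLC39A10 with 739.9 ± 40.0, and MT1E (414) had dropped to the level of SLC39A4 (430.2), with overlapping libraries. With the union of all annotated exons as the length, MT1E was above SLC39A4 there, with 278 and 309 against 176 and 191 and no overlap. After tryptophan depletion the exporter SLC30A1 led with 1307 ± 15.2, before SLC39A4 (589), MT1E (547), MT2A (419), MTF1 (327) and SLC39A10 (292). On the union of exons the highest gene of each group was the same, whereas the order below it changed. After tryptophan depletion that order was MT1E, MTF1, SLC39A4, SLC39A10 and MT2A.

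The genes whose profile over the 6 libraries was most like that of the summed metallothioneins were sought by the smallest root mean square distance between centred log2 profiles, among 12478 genes whose mean reached 100 normalized counts. The 5 closest were DNMT1, HMGN3, PRR11, PRR11-AS1 and PARPBP, at distances of 0.0438 to 0.0629. DNMT1, which encodes the maintenance DNA methyltransferase, had mean normalized counts of 7642 in untreated cells, 3778 after histidine depletion and 1592 after tryptophan depletion. For SLC30A1 the 5 closest of 12479 genes were ASS1, SLC6A9, DHRS9, AMIGO2 and RBCK1, at distances of 0.0689 to 0.0984. ASS1, which encodes argininosuccinate synthase, had means of 3882, 3154 and 15312 in the same order of groups. SLC6A9, a glycine transporter, had means of 1449.8, 1204 and 5470.5. These distances describe likeness over 3 group levels and carry no test.

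The other zinc transporters did not follow a single direction. Counts of called genes in these lists stand beside 39.1% higher and 38.2% lower of all tested genes without histidine, and 36.1% and 34.8% without tryptophan, so that most tested genes pass the threshold in a direction. Of the 9 other SLC30 genes, whose products mostly move zinc out of the cytosol into organelles or out of the cell, 6 were tested. After histidine depletion 4 of them rose and 2 fell, and after tryptophan depletion 4 rose and 1 fell, with medians of 0.53 and 0.32 on the log2 scale against 0.010 and 0.013 over all tested genes. The histidine median includes SLC30A2, which was tested only because it was high in untreated cells. Without SLC30A2 it would be the value of SLC30A4, 0.84. SLC30A7 and SLC30A6, which serve the Golgi and the secretory pathway, had log2 fold changes of 0.89 and 0.91 in the libraries without histidine and 0.28 and 0.35 in those without tryptophan. SLC30A5, the partner of SLC30A6, rose by 0.23 and 0.55. SLC30A9 fell by 0.32 and 0.34 in the same order. The low-expressed SLC30A2, which reached the mean of 10 in the histidine comparison only through the untreated libraries, went from 15.3 and 24.9 normalized counts to 9.03 and 4.07 (log2 fold change -1.52, adjusted p = 0.00392 by limma), and had a log2 fold change of -0.018 after tryptophan depletion (adjusted p = 0.965).

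Of the 12 other SLC39 genes, which encode importers into the cytosol, 10 were tested. After histidine depletion 3 rose and 7 fell (median log2 fold change -0.26), and after tryptophan depletion 6 rose and 3 fell (median 0.16). SLC39A14, which carries zinc, iron and manganese, rose in both, by 0.62 and 0.44, as did SLC39A9, by 0.45 and 0.35. SLC39A7, which releases zinc from the endoplasmic reticulum, fell by 0.29 after histidine depletion and rose by 0.98 after tryptophan depletion. SLC39A6 fell by 0.38 and 0.27. SLC39A5, an importer of the basolateral side of enterocytes, went from 419.7 and 402 normalized counts in untreated cells to 24.4 and 54.9 after histidine depletion and was at 502 and 442 after tryptophan depletion. Its log2 fold changes by limma were -3.44 (SE 0.222, adjusted p = 6.16e-13) and 0.19 (SE 0.0872, adjusted p = 0.0445), and the depletions differed by -3.65 (adjusted p = 1.23e-10). SLC39A8, a manganese and zinc importer, fell by 1.29 after tryptophan depletion (adjusted p = 2.41e-39 by limma), against 0.26 after histidine depletion. SLC39A11 rose by 0.92 after tryptophan depletion, and the direct comparison gave -1.12 for it.

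Metallothioneins also bind copper, and the 13 genes of copper handling were looked at for that reason. Of 10 tested, 2 rose and 5 fell after histidine depletion, and 4 rose and 5 fell after tryptophan depletion, beside the same shares of all tested genes. SLC31A1, the copper importer, fell by 0.58 without histidine and rose by 0.996 without tryptophan on the log2 scale, 1.99-fold. ATP7B, a copper-exporting ATPase, fell by 1.66 without histidine and rose by 0.58 without tryptophan, while its relative ATP7A rose in both, by 0.41 and 0.27. HEPH, the ferroxidase of enterocytes that needs copper, went from 1323 and 1271 normalized counts to 131 and 193 without histidine and 682 and 637 without tryptophan, with log2 fold changes of -3.01 and -0.98 (adjusted p = 3.56e-17 and 1.31e-29 by limma). SOD1, the superoxide dismutase that binds copper and zinc, fell by 1.39 and 0.59, and its copper chaperone CCS fell by 0.43 without histidine and rose by 0.56 without tryptophan. SCO1, a copper chaperone of mitochondria, rose by 0.44 and fell by 0.21 in that order.

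**Figure D3:**
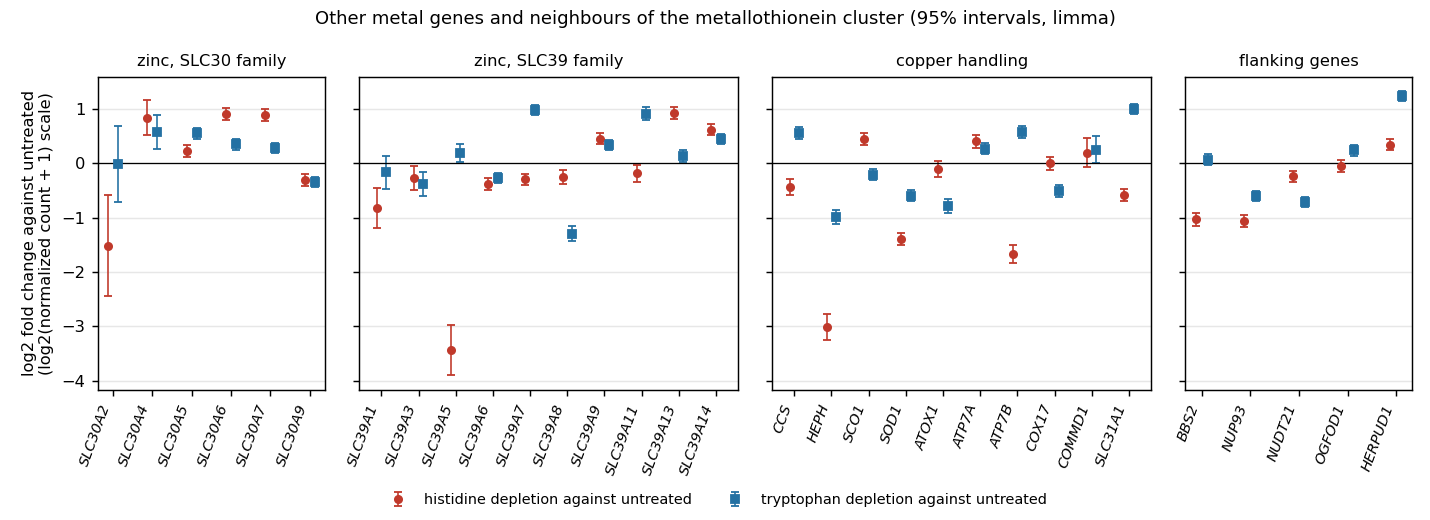
Log2 fold changes against untreated cells (y axis, log2(normalized count + 1) scale) with 95% intervals by limma for tested genes (x axis) of the SLC30 and SLC39 families, of copper handling and from the flanks of the metallothionein cluster, after histidine (red) and tryptophan depletion (blue). SLC39A5 and HEPH are lowest, at -3.44 and -3.01 after histidine depletion.

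Few further metallothionein or zinc genes could be measured. Of 7 metallothionein genes outside the 10, only MT1A and MT1L had a read and none was tested. Of 5 further zinc-handling genes 1 was tested, the zinc-sensing receptor GPR39, which rose by 0.51 on the log2 scale after tryptophan depletion (adjusted p = 2.17e-06 by limma) and had a value of 0.097 on the same log2 scale without histidine (adjusted p = 0.486).

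The genes beside the metallothionein cluster were looked at beside it. Of 7 flanking genes 5 were tested, and 1 rose and 3 fell after histidine depletion, while 2 rose and 2 fell after tryptophan depletion, again beside 39.1% higher and 38.2% lower, and 36.1% higher and 34.8% lower, of all tested genes. NUP93, of the nuclear pore, fell in both, by 1.06 and 0.60, as did NUDT21, a factor of mRNA 3' end cleavage, by 0.24 and 0.71. HERPUD1, of degradation at the endoplasmic reticulum, rose in both, by 0.35 and 1.23. BBS2, a gene of the primary cilium, fell by 1.03 after histidine depletion and had a log2 fold change of 0.067 after tryptophan depletion (adjusted p = 0.256 by limma). The difference between neighbours and cluster was not tested.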

How the data were processed

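RNA-seq of HT29 cells, untreated or kept without histidine or tryptophan for 48 h, was used, with 2 libraries per group and 46390819 to 64388876 reads per library. Stranded mRNA libraries carried unique molecular identifiers. The authors aligned the reads with STAR 2.7.10a to GRCh38 and counted them on exons with htseq-count (HTSeq 2.0.5), and deposited DESeq2-normalized counts (a signal) in a separate table for each depletion with the same untreated libraries. How identifiers, strand and multiply mapped reads were treated is not given in the sources used here. Divided by the step of 1 read, 100% of the deposited values were whole within 0.01, and the untreated reads were identical in both tables. Levels printed per library are these reads scaled over all 6 libraries by the median of ratios.

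The members and gene lists were chosen with earlier results of these data known. Members were found by symbol in gencode release 44 (60357 of 60676 identifiers matched). Genes with a mean of at least 10 were compared by limma 3.58.1 (two-sided, with a trend of variance on expression, under R 4.3.3) on log2(normalized count + 1), with Benjamini-Hochberg adjustment over all tested genes and a threshold of 0.05, within each table against untreated cells and on jointly scaled reads of all 6 libraries between depletions. Fold changes on this scale understate changes of low genes. Each choice was also varied, with pseudocounts of 0.5 or 8, a minimum mean of 50 or none, no trend, quantile normalization, edgeR 4.0.16 and DESeq2 1.42.0 on recovered reads, all 6 or only the compared libraries in the fit, a fold limit, a replicate block and each library left out. On recovered reads edgeR called 7169 genes higher and 7111 lower without histidine, and 6490 and 6349 without tryptophan. All 10 members were named. In each list, at most 4 genes with the highest mean and those past the threshold that changed by 1 or more on the log2 scale were named, with the 5 genes most like the summed metallothioneins and SLC30A1. The limma step was tested on simulated data. Tables and plots were made with Python 3.11.15, pandas 2.3.3, numpy 2.4.6, scipy 1.17.1 and matplotlib 3.10.9. Promoter windows came from RefSeq (GRCh38.p14). A gene of the list of flanking genes is not reported here and was left out of its counts.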

Additional observations from a re-analysis of the deposited data

Results flagged for a closer look

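The response of 7 members differed between the depletions by the direct limma test, where 38.7% of all 18264 tested genes were called higher and 38% lower, and these are listed with the log2 difference of histidine against tryptophan depletion. MT2A differed by 2.70, MTF1 by 1.36 and SLC39A10 by 1.34, each higher without histidine in 2 of 2 libraries. SLC30A1 differed by -2.34, MT1X by -1.41, SLC39A4 by -0.45 and MT1E by -0.40, each lower without histidine in 2 of 2 libraries. For MT2A, SLC30A1 and SLC39A10 the changes against untreated cells also had opposite signs.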

How the results depend on the processing

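Of 369 values of the members under alternatives, 352 kept direction and side of the threshold, 10 lost the call, 1 gained it and 6 turned sign, the last all for differences that had not been called. For many of these values the direction could not turn. Changing only the filter, the trend, the replicate block or the fold limit leaves the fold change as it was. So does leaving out an untreated library in the direct comparison. SLC39A4 after histidine depletion (-0.019) turned to 0.14 (adjusted p = 0.0537) with quantile normalization, 0.043 without the second untreated library and 0.038 without the first histidine-depleted library, and lay between -0.081 and 0.043 over the libraries left out. MT1F between the depletions (0.098) turned to -0.060 with edgeR, -0.015 with DESeq2 and -0.44 without the first tryptophan-depleted library, and lay between -0.44 and 0.63 over the libraries left out. With a limit of 1 on the log2 scale added, 1 member in place of 3 was higher after histidine depletion, 1 in place of 3 higher after tryptophan depletion, and 2 in place of 4 lower in the direct comparison. With a mean of at least 50, 6 members were tested and 2 in place of 4 fell after histidine depletion. Leaving out each library gave 2 to 3 higher members after tryptophan depletion, 3 higher after histidine depletion and in the direct comparison, and 4 lower in each comparison. Without a filter MT1G was tested and passed after histidine depletion. MTF1 after tryptophan depletion lost its call without the second tryptophan-depleted library and without the trend, and MT1X gained one without the trend. Over all genes, the limit on the fold moved the calls beyond 1.5 times, to 3002 higher and 2947 lower after histidine depletion, 1801 and 1873 after tryptophan depletion and 2914 and 2880 between depletions.

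Same-numbered libraries did not deviate together (correlations 0.042, 0.0020 and -0.041 over 18264 genes), so the numbers were not taken as pairs. With the replicate number as a block, 3 members were higher and 4 lower in each comparison, and calls over all genes were 7311 and 7121, 6501 and 6265, and 7095 and 6974. With 2 libraries per group, 0 to 33 reads per library for MT1F, MT1X and MT1G and 0 reads for MT1M, the values of these genes are limited by depth.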
